A study of Mus musculus with 3 samples.

Results

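Type 2 conventional dendritic cells (cDC2) of the mouse gallbladder were taken as single-cell barcodes that met 7 criteria on their own RNA. Each had at least 1 unique molecular identifier (UMI, a tag that counts 1 captured RNA molecule) of Cd209a or Clec10a, at least 1 of Flt3, Zbtb46 or Itgax, and at least 10000 CPM (UMIs scaled to a total of 1000000) of Cd74, H2-Aa and H2-Ab1 together. Each had 0 UMIs of Xcr1 and Clec9a, under 2 UMIs of the 3 C1q genes, 0 UMIs of Cd3e and Cd79a, and under 6000 CPM of Epcam, Krt8, Krt18 and Krt19 together. The rule selected 336 of 26017 kept barcodes, a share of 1.29% (exact Clopper-Pearson 95% interval 1.16 to 1.44%). The study exposed male C57BL/6 mice to nanoplastics by oral gavage for 3 weeks or for 6 weeks, and gave control mice vehicle by oral gavage for 6 weeks. For every group, 10 gallbladders were pooled into 1 library, digested with trypsin and profiled with droplet 3′ libraries. The deposited matrix numbers its barcodes by library 1, 2 or 3, and the sources used here do not link a library number to a group. The libraries are therefore given side by side as unassigned samples, without replicates and without a test, and no value below compares exposure with control.

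Conventional dendritic cells take up antigen in tissues, load peptides on major histocompatibility complex (MHC) molecules and carry them to lymph nodes to prime T cells. Those of type 2 present chiefly on MHC class II to CD4 T cells and depend on the transcription factor IRF4, whereas those of type 1 (cDC1) depend on IRF8 and excel at cross-presentation on MHC class I. On maturation both types gain the chemokine receptor CCR7, which guides them along lymphatic vessels.

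Library 1 held 64 of the cDC2 (1.45% of its kept barcodes, 1.12 to 1.85%), library 2 held 182 (1.57%, 1.36 to 1.82%) and library 3 held 90 (0.895%, 0.721 to 1.10%). Their median depth was 11996 UMIs in library 1, 5562 in library 2 and 4139 in library 3, and together they carried 2215534 UMIs. Library 3 was shallower throughout, where all kept barcodes had a median of 2323 UMIs, while the medians were 10704 for library 1 and 9666 for library 2. Of the deposited barcodes, 54 sequences occurred in more than 1 library. No sequence was shared between 2 cDC2, and 2 cDC2 carried a sequence that also occurred in another library. A doublet caller run per library scored 9 of the 336 as doublets. A tissue share of this kind cannot tell more cells of a type from better release of that type by the digestion.

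The values that chose the cells are a description. Taken in order, the lectin criterion left 1357 barcodes, the dendritic gene criterion 514, the class II criterion 436, the cDC1 criterion 400, the C1q criterion 348, the lymphocyte criterion 345 and the epithelial criterion 336. The summed class II level per cell had a lowest value of 10290, a median of 41399 and a highest value of 118694 CPM, and the nearest barcode that failed this criterion only stood at 8240 CPM. The highest epithelial sum inside was 4119 CPM and the nearest outside 6025 CPM. A single lectin UMI admitted 44 of the cells (13.1%), and 20 carried 1 C1q UMI. The 106 barcodes that failed on the lectins alone had 0 UMIs of both, and the 48 that failed on C1q alone had 2 to 184.

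Cd209a (GRCm38 chr8:3743397-3748984, minus strand), the mouse relative of the pathogen lectin DC-SIGN, was at 572, 605 and 1092 CPM in cDC2 of libraries 1, 2 and 3. Clec10a (chr11:70156197-70170834, plus strand), a lectin for galactose-type sugars, was at 271, 287 and 278 CPM. Flt3, the receptor for the growth factor that maintains dendritic cells, was at 117, 140 and 357 CPM. Itgax, which encodes the integrin CD11c, was at 227, 188 and 232 CPM, and the dendritic transcription factor gene Zbtb46 at 47.7, 67.4 and 57.5 CPM. All 4 marker genes were thus present in each library. Both lectins were found in 155 cells (46.1%), Cd209a alone in 139 (41.4%) and Clec10a alone in 42 (12.5%). After each cell was thinned to 2000 UMIs, which left 323 cells, both lectins were found in 19.5%, Cd209a alone in 44.3% and Clec10a alone in 14.2%. In keratin-high barcodes (9565 epithelial cells, median 13654 UMIs), which should lack both, thinned shares were 0.129% for Cd209a and 0.172% for Clec10a.

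B cell and T cell marker lists outside the rule summed to less in the cDC2 than in all other kept barcodes, whereas several other lists summed to more. Of 6 B cell markers outside the rule 5 were at 0, among them Ms4a1, Pax5 and Ighd. The B cell list summed to 1.81 CPM, against 5.32 CPM in all other kept barcodes. The 8 T cell markers outside the rule summed to 17.2 CPM, against 109 CPM, with Cd3g at 0. The rule itself barred Cd79a and Cd3e, so these 2 lists are a description. Of 8 mast cell and basophil markers 5 were at 0, among them Cpa3 and Mcpt8, and the list sum of 101 CPM was almost all Kit, at 97.9 CPM. The 11 resident macrophage markers outside the rule summed to 328, 276 and 704 CPM in cDC2 of libraries 1, 2 and 3, against 26800 CPM in C1q macrophages, and none was at 0. The 14 monocyte markers summed to 1139, 995 and 3797 CPM in cDC2, against 1605, 1340 and 2030 CPM over all kept barcodes of libraries 1, 2 and 3, with Chil3 at 0. Nr4a1, which is also an immediate early gene, made up 1859 CPM of the library 3 sum. Xist, expressed from the inactive X chromosome of females, had 1 UMI, and the Y-linked Ddx3y had 466, beside a label of male mice. The 8 cDC1 markers outside the rule summed to 473 CPM in cDC2 and 2459 CPM in cDC1, led in cDC2 by Wdfy4. Lists of other cells summed to 481 CPM for plasmacytoid dendritic cells, 196 for Langerhans-type cells, 425 for neutrophils (374 of it Il1r2), 234 for plasma cells, 250.5 for natural killer and innate lymphoid cells (220 of it Il7r), 182 for microglia, 3.61 for rod photoreceptors and 11.3 for red cells. In all other kept barcodes the neutrophil list summed to 327 CPM, the natural killer and innate lymphoid list to 135, the mast cell and basophil list to 20.6 and the microglia list to 45.5, each below its sum in cDC2. Other lists summed to more there than in cDC2, with 4459.5 CPM for plasmacytoid dendritic cells, 1312 for Langerhans-type cells and 2857 for plasma cells. The rod photoreceptor and red cell lists were also higher there, at 10.8 and 31.0 CPM. Defining genes at 0 among them were Cox6a2, Retnlg, Ncr1, P2ry12 and Alas2. A count of 0 in 336 cells allows a share of up to 0.893% of cells with a UMI, for counting error only.

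Stromal RNA was highest in library 3. The 8 fibroblast markers summed to 239, 494 and 3222 CPM in cDC2 of libraries 1, 2 and 3, and to 4028, 1640 and 7557 CPM over all kept barcodes of those libraries, and none was at 0. The 6 smooth muscle markers summed to 31.0, 47.9 and 537 CPM in the cDC2, and the 7 endothelial markers to 64.5, 22.5 and 223 CPM. Library 3 was the highest in each of the 3 lists, in cDC2 as over all barcodes. The part of this RNA in the library 3 values below was not tested.

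**Figure D1:**
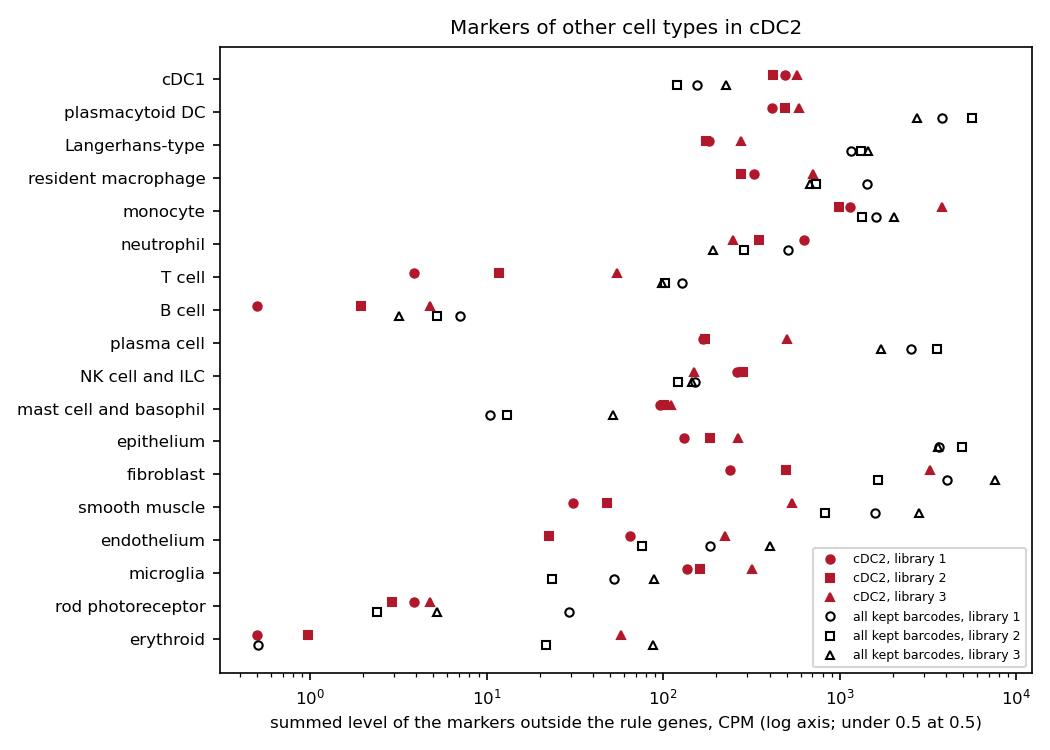
Summed level of marker lists of other cell types (y axis), rule genes left out, in CPM on a log axis, with filled red symbols for the cDC2 and open black symbols for all kept barcodes of libraries 1, 2 and 3. Stromal lists lay highest in library 3 (fibroblast 3222 CPM in its cDC2), and the B cell list lay at or under 4.79 CPM in every library's cDC2.

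Levels were next compared with 3 other sets of cells. The first held 167 cDC1, taken by a UMI of Xcr1 or Clec9a and the other cDC2 criteria except the lectin one. Lectin UMIs did not bar a cell, so the 31 barcodes that failed the cDC2 rule only on Xcr1 and Clec9a were in this set. Their part in the cDC1 levels was not tested. The second held 896 macrophages with at least 5 C1q UMIs and a UMI of Csf1r or Adgre1. The third held 44 monocyte-type cells with Csf1r and a monocyte gene but no lectin, Flt3 or Zbtb46. The class II criterion applied to cDC2 and cDC1, but not to the macrophages or the monocyte-type cells. A gene was compared where either set had at least 10 CPM and 20 UMIs, and a difference was counted from 2-fold upward on the log2(CPM + 20) scale, which understates the change of low genes. Against cDC1, 144 of 7035 genes were counted as higher in cDC2 (2.05%) and 112 as lower (1.59%). Against C1q macrophages, 242 of 7947 were higher (3.05%) and 492 lower (6.19%). The median log2 ratio over all compared genes was -0.05 against cDC1 and -0.18 against macrophages. These shares are the background for the counts of each gene list, and since cells of 1 pooled sample are not replicates, no count carries a test. Levels are compared between cells for 1 gene, not between genes.

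Markers of cDC2 outside the rule stood above cDC1 more often than below. Of 19 found, 13 could be compared with cDC1, 6 were higher (Mgl2, Sirpa, Irf4, Itgam, Ms4a6c and Cd7) and 1, Cd24a, was lower, with a median log2 ratio of 0.89. Mgl2 (chr11:70130329-70137550, plus strand), a lectin gene beside Clec10a and nearly identical to it in part, was at 667, 676 and 740 CPM in cDC2 of libraries 1, 2 and 3, against 159 CPM in cDC1 and 300 CPM in macrophages. How reads shared by the 2 lectin genes were counted is not given in the sources used here, so their separate levels are uncertain. Mgl2 was found in 57.3% of thinned cDC2 and in 0.226% of thinned keratin-high barcodes, and its share lay between 54.8 and 60.9% in the 3 libraries. Itgam, which encodes the integrin CD11b, was at 138, 117 and 302 CPM in cDC2, against 14.6 CPM in cDC1. Sirpa, the receptor for the signal CD47, was at 91.6, 69.4 and 228 CPM in cDC2, against 19.1 CPM in cDC1. Against macrophages, 14 of the markers could be compared, 3 were higher (Mgl2, Cd7 and Dpp4) and 2 lower (Sirpa and Clec4a2). Sirpa was at 369 CPM in macrophages.

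The transcription factors divided cDC2 from cDC1 in opposite directions. Irf4 (chr13:30749226-30766976, plus strand) was at 72.3, 66.5 and 125 CPM in cDC2 of libraries 1, 2 and 3, against 14.6 CPM in cDC1 and 30.5 CPM in macrophages. Irf8 (chr8:120736358-120756694, plus strand) was at 12.9, 14.7 and 24.0 CPM in cDC2, against 601 CPM in cDC1 and 184 CPM in macrophages. The log2 difference between cDC2 and cDC1 was 1.52 for Irf4 and -4.12 for Irf8, with Irf8 lower in each library (-3.79, -3.41 and -4.64). Zeb2, a repressor needed for cDC2 in mouse, was at 180 CPM in cDC2, against 43.9 CPM in cDC1 and 551 CPM in macrophages. Id2, an inhibitor of other helix-loop-helix factors, was at 528 CPM in cDC2 and 653 CPM in cDC1, and Klf4, linked in mouse to a subset of cDC2, at 462 CPM in cDC2 and 564 CPM in cDC1. Of 25 compared genes of the dendritic lineage list (28 found, 3 of them in the rule), 3 were higher than in cDC1 (Irf4, Zeb2 and Bach2) and 2 lower (Irf8 and Naaa). Against macrophages, 6 of 24 were higher, among them Kit, Btla and Dpp4, and 2 lower (Irf8 and Zeb2).

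Clec4a4, Tbx21 and Esam, which mark cDC2 subsets in mouse spleen, had 12 UMIs or fewer each. Clec4a4, the target of the antibody 33D1, had 0 UMIs. Tbx21 had 4 UMIs (1.81 CPM, exact Poisson 95% interval 0.492 to 4.62). Esam had 12 UMIs (5.42 CPM, 2.80 to 9.46), at 0, 0.977 and 26.4 CPM in libraries 1, 2 and 3. Esam, also an endothelial gene, was highest in library 3, as the fibroblast, smooth muscle and endothelial marker lists were, and their part in it was not tested. Itgae, which encodes the CD103 of gut dendritic cells, was at 65.8, 64.5 and 4.79 CPM in cDC2, against 200 CPM in cDC1, and 91.6% of its UMIs lay in the 34 cells that held the most. The Itgae signal was thus borne by few cells, and those of libraries 1 and 2.

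**Figure D2:**
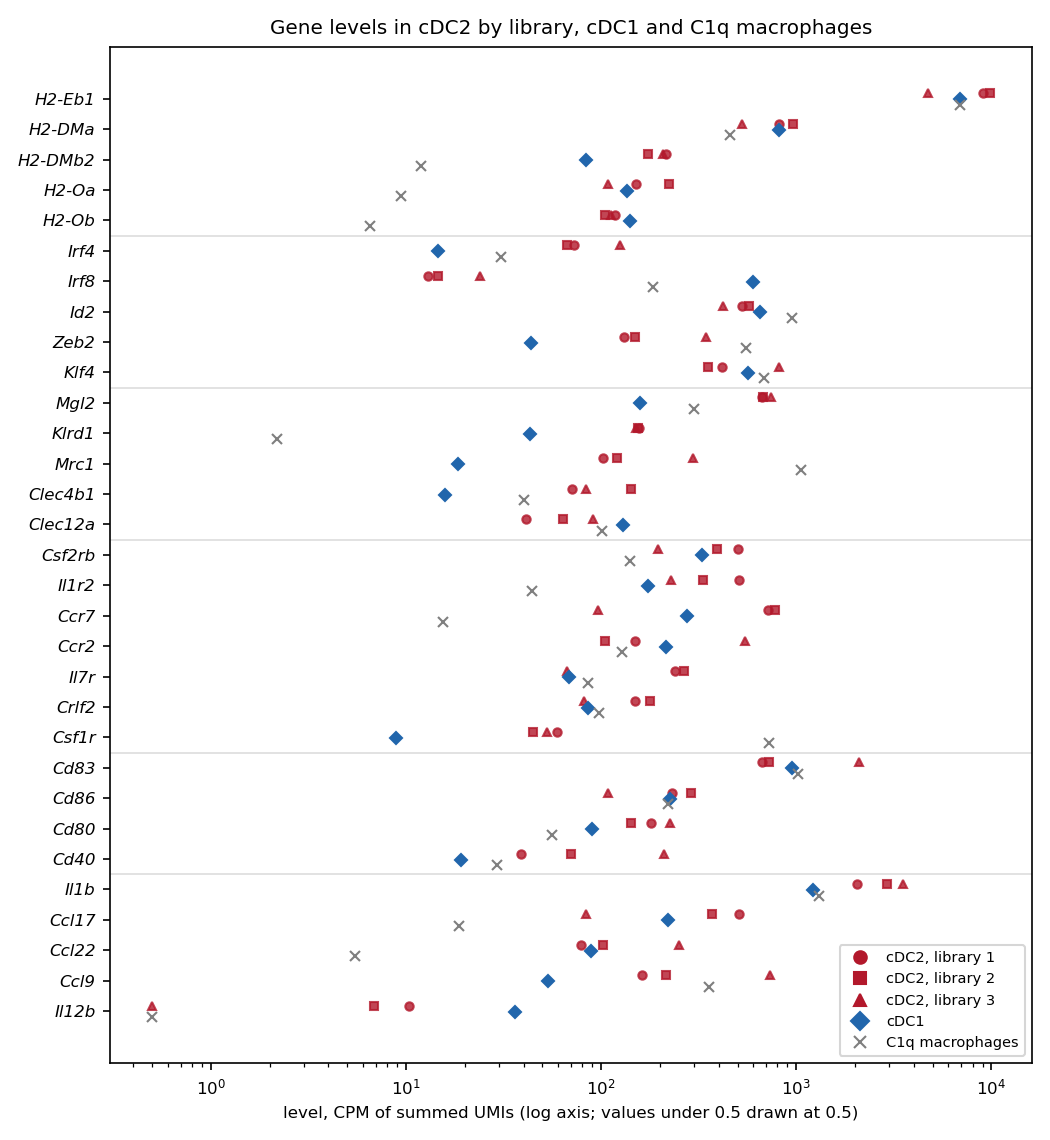
Level of genes outside the rule (y axis, grouped by role) in CPM of summed UMIs on a log axis, with red symbols for cDC2 of libraries 1, 2 and 3, blue diamonds for cDC1 and grey crosses for C1q macrophages. Irf8 lay far lower in cDC2 (12.9 to 24.0 CPM) than in cDC1 (601 CPM), and H2-Oa, H2-Ob and H2-DMb2 lay far above macrophages.

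Class II transcripts were abundant, and H2-Oa, H2-Ob and H2-DMb2 were higher than in macrophages. The chains used in the rule were at 21223 CPM for Cd74, the invariant chain, 9949 CPM for H2-Aa and 9822 CPM for H2-Ab1, a description only. H2-Eb1, not part of the rule, encodes the beta chain of I-E, whose alpha chain C57BL/6 mice lack. It was at 9014, 9839 and 4707 CPM in cDC2 of libraries 1, 2 and 3, against 6905 CPM in cDC1 and 6899 CPM in macrophages. H2-DMa, a chain of the peptide exchange catalyst H2-M, was at 814, 963 and 529 CPM in cDC2, against 814 CPM in cDC1 and 456 CPM in macrophages. These 2 genes differed by less than 2-fold from both sets. H2-Oa, a chain of the H2-M inhibitor H2-O, was at 151, 223 and 108 CPM in cDC2, against 135 CPM in cDC1 and 9.38 CPM in macrophages. H2-Ob, the other chain, was at 117, 105 and 113 CPM in cDC2, against 140 CPM in cDC1 and 6.54 CPM in macrophages. H2-DMb2, a beta chain of H2-M that shares much sequence with H2-DMb1, was at 216, 174 and 208 CPM in cDC2, against 83.9 CPM in cDC1 and 12 CPM in macrophages. Both H2-O chains and H2-DMb2 were above the pooled macrophage level in every library, and over all libraries by log2 differences of 2.74, 2.30 and 2.75. The cDC2 were chosen by class II level and the macrophages were not, and the part of that choice in these differences was not tested.

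The promoters of these genes are shown because H2-Eb1, H2-DMb2, H2-Oa and H2-Ob carry the contrast between a shared and a dendritic pattern. Class II promoters are known for an X box, bound by the RFX complex, and a Y box, bound by NF-Y, on which the co-activator CIITA assembles. In RefSeq windows from 250 bases before to 50 bases after the gene start (GRCm38.p6), the letters TGATTGG of the Y box and AGCAAC of the X box were searched on both strands. The motifs do not overlap in these windows, and capitals mark both. The windows are chr17:34305617-34305916 for H2-Eb1, chr17:34144999-34145298 for H2-DMb2, chr17:34092129-34092428 for H2-Oa and chr17:34238655-34238954 for H2-Ob, all on the plus strand.
H2-Eb1: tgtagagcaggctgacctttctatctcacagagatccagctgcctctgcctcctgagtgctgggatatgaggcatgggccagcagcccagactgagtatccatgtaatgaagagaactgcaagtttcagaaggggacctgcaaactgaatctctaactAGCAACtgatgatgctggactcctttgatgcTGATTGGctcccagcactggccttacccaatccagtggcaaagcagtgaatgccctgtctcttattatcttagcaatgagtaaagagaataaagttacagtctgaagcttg
H2-DMb2: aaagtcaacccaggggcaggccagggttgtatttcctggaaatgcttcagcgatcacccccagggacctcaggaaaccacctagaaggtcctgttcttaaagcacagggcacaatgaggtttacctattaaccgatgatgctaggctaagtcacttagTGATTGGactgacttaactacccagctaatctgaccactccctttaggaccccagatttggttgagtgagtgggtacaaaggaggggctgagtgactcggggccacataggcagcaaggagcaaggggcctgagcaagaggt
H2-Oa: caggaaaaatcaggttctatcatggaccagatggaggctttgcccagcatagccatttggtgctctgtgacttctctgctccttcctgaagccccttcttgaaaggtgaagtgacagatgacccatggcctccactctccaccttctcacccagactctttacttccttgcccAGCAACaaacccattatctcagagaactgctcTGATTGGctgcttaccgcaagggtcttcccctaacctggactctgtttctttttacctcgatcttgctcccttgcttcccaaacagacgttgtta
H2-Ob: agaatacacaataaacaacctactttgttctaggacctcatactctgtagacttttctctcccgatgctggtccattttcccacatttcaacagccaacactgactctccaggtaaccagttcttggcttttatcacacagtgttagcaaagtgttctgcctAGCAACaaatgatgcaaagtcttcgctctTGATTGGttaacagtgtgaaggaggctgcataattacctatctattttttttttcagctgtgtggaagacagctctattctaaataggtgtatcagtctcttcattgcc
Of 9 class II genes sought, 8 were in the table, all but H2-Ab1, and 7 of the 8 held TGATTGG on the strand of the gene, the exception being the 2 windows of H2-DMa. The motif began 61 bases before the start in H2-Eb1, 92 in H2-DMb2, 45 in H2-Oa and 59 in H2-Ob. Of all 32851 windows, 7.82% held TGATTGG and 14.8% held AGCAAC on either strand. AGCAAC stood upstream of TGATTGG in H2-Eb1, H2-Eb2, H2-Oa and H2-Ob, with starts 31, 31, 32 and 29 bases apart. A spacing of 25 to 35 bases in this order occurred in 11 of all windows (0.033%). H2-Eb1 and both H2-O genes thus held the same pair of motifs, and H2-DMb2 held TGATTGG without AGCAAC. Both H2-O genes and H2-DMb2 differed by at least 2-fold between cDC2 and macrophages, and H2-Eb1 did not. The part of the motifs in these levels was not tested.

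Of 19 genes of the class II and loading list (3 in the rule), 15 were compared with each set. Against cDC1, 4 were higher (H2-DMb2, Ctss, Lgmn and Ctsh) and 0 lower, and against macrophages 3 were higher (the H2-O chains and H2-DMb2) and 6 lower, all lysosomal (Ctss, Lgmn, Ctsl, Ctsd, Ctsz and Cd68). Ctss, the protease that trims the invariant chain, was at 1079, 962 and 1147 CPM in cDC2, against 416 CPM in cDC1 and 2193 CPM in macrophages. Ctsd, a lysosomal aspartic protease, was at 31.0, 30.3 and 110 CPM in cDC2, against 893 CPM in macrophages. Cathepsin levels of cDC2 thus lay between cDC1 and macrophages for Ctss, and far under macrophages for Ctsd. Ciita was at 37.5 CPM in cDC2, 45.8 CPM in cDC1 and 25.1 CPM in macrophages. In the list of MHC class I and cross-presentation (15 of 16 compared), Cybb was higher than in cDC1, and Psmb9 and Rab7b lower. Against macrophages, Wdfy4 was higher, and Cybb and Rab7b lower. Cybb, a subunit of the phagocyte oxidase, was at 212, 245 and 338 CPM in cDC2, against 27.3 CPM in cDC1. Wdfy4, which cDC1 need for cross-presentation in mouse, was at 231, 214 and 189 CPM in cDC2, against 445 CPM in cDC1 and 30.1 CPM in macrophages.

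Few costimulation genes differed by 2-fold between cDC2 and cDC1. Of 18 compared genes of 20, 2 were higher than in cDC1 (Cd40 and Tnfsf9) and 0 lower, with a median log2 ratio of 0.30. Cd83, which stabilises class II on the surface, was at 665, 724 and 2091 CPM in cDC2 of libraries 1, 2 and 3, against 954 CPM in cDC1 and 1026 CPM in macrophages. Cd86, a ligand of CD28, was at 231, 289 and 108 CPM in cDC2, against 226 CPM in cDC1 and 219 CPM in macrophages. Cd80, the other ligand, was at 179, 142 and 225 CPM in cDC2, against 89.6 CPM in cDC1 and 56.3 CPM in macrophages. Cd40, the receptor for help from CD4 T cells, was at 38.7, 70.4 and 211 CPM in cDC2, against 19.1 CPM in cDC1. Library 3 was the highest of the 3 for Cd83, Cd80 and Cd40 and the lowest for Cd86. Cd274, which encodes the checkpoint ligand PD-L1, was at 110, 119 and 103 CPM in cDC2, against 50.9 CPM in cDC1. Against macrophages, Cd80 and Cd40 of the 18 genes were higher, and Vsir and Lgals9 lower.

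Il1b was the cytokine gene counted as higher in cDC2 against both sets. Il1b (chr2:129364570-129371139, minus strand), which encodes interleukin 1 beta, was at 2057, 2899 and 3524 CPM in cDC2 of libraries 1, 2 and 3, against 1221 CPM in cDC1 and 1303 CPM in macrophages. It was found in 86.4% of thinned cDC2 (82.2 to 89.9%), with 84.4, 88.6 and 83.3% in the 3 libraries, and in 2.51% of thinned keratin-high barcodes. Of 23 cytokine genes found, 12 were compared with cDC1, 4 were higher (Il1b, Il1rn, Il6 and Osm) and 1 lower (Il12b). Il12b, the shared chain of interleukins 12 and 23, had 15 UMIs (6.77 CPM, 3.79 to 11.2) in cDC2, against 36.2 CPM in cDC1. Il12a, Il23a, Ifnb1 and Tnfsf13 had 0 UMIs. Against macrophages, 15 were compared, Il1b was higher and 4 were lower (Il1a, Il10, Tnf and Tgfbi). Il10 was at 2.71 CPM in cDC2 and 97.9 CPM in macrophages, and Tnf at 16.7 CPM in cDC2 and 285 CPM in macrophages. The inflammasome sensor gene Nlrp3 was at 221, 292 and 232 CPM in cDC2, against 139 CPM in cDC1 and 583 CPM in macrophages.

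Chemokine genes set cDC2 apart from macrophages, mostly by lower levels. Of 19 compared genes of 20, 12 were lower than in macrophages and 2, Ccl17 and Ccl22, were higher. Cxcl2, a neutrophil attractant, was at 528, 329 and 376 CPM in cDC2, against 7345 CPM in macrophages. Ccl17 (chr8:94810453-94812036, plus strand), a ligand of CCR4 on T cells, was at 510, 369 and 83.8 CPM in cDC2, against 220 CPM in cDC1 and 18.8 CPM in macrophages. Ccl22 (chr8:94745590-94751699, plus strand), its neighbour and another CCR4 ligand, was at 78.7, 103 and 252 CPM in cDC2, against 88.4 CPM in cDC1 and 5.45 CPM in macrophages. The libraries were thus in opposite order for the 2 neighbouring genes. The top 34 cells held 86.5% of the Ccl17 UMIs and 86.3% of the Ccl22 UMIs, and 44 cells (13.1%) held both. Against cDC1, 3 of 15 compared genes were higher (Ccl6, Ccl9 and Cxcl10) and 0 lower. Ccl9, a ligand of CCR1, was at 163, 215 and 731 CPM in cDC2, against 53.4 CPM in cDC1. Without library 3 the Ccl9 level in cDC2 was 192 CPM.

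Of the chemokine receptor list (22 found, 1 in the rule), 7 were compared with cDC1, 4 were higher, among them Ccr1, Ccr7 and Ccrl2, and 0 lower. These counts pool the libraries, and Ccr7 in cDC2 of library 3 lay below the pooled cDC1 level. Ccr1, a receptor for inflammatory chemokines, was at 196, 174 and 163 CPM in cDC2, against 40.0 CPM in cDC1. Ccr2, the receptor that draws cells out of the marrow, was at 148, 105 and 546 CPM in cDC2, against 214 CPM in cDC1 and 127 CPM in macrophages. Ccr1 was even across the libraries, whereas Ccr2 was highest in library 3 and its cDC2 level without library 3 was 123.5 CPM. Cx3cr1, the fractalkine receptor of macrophages and monocytes, was at 7.22 CPM in cDC2 and 240 CPM in macrophages. Of 11 receptors compared with macrophages, Ccr7 was higher and 5 were lower (Ccrl2, Cx3cr1, C5ar1, C3ar1 and S1pr1).

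Ccr7 (chr11:99144196-99155077, minus strand) differed between the libraries. It was at 716, 775 and 95.8 CPM in cDC2 of libraries 1, 2 and 3, against 276 CPM in cDC1 and 15.5 CPM in macrophages. The cDC1 level pools all libraries, and the cDC2 of library 3 lay below it. Ccr7 was found in 57.8% (44.8 to 70.1%) and 59.4% (51.8 to 66.8%) of thinned cDC2 in libraries 1 and 2, and in 10.7% (5.02 to 19.4%) in library 3. The unthinned shares were 70.3, 73.1 and 14.4%, and the thinned share in keratin-high barcodes was 0.237%. At equal depth, libraries 1 and 2 were alike, and the interval of library 3 lay below both of theirs. These intervals cover counting error only, and with 1 pooled sample per library the spread between samples is not known. The Ccr7 share was chosen for description after its values were seen. The combination of Ccr7 with Fscn1, an actin bundler of mature dendritic cells, was found in 8 cells (2.38%, 1.03 to 4.64%), and in 0.619% after thinning. Of 24 compared genes of the mature and migratory list (28 found), 4 were higher than in cDC1 (Ccr7, Marcksl1, Samsn1 and Stat4) and 2 lower (Serpinb6b and Cst3). Against macrophages, 7 were higher, among them Ccr7, Ccl17, Ccl22 and Traf1, and 3 lower.

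**Figure D3:**
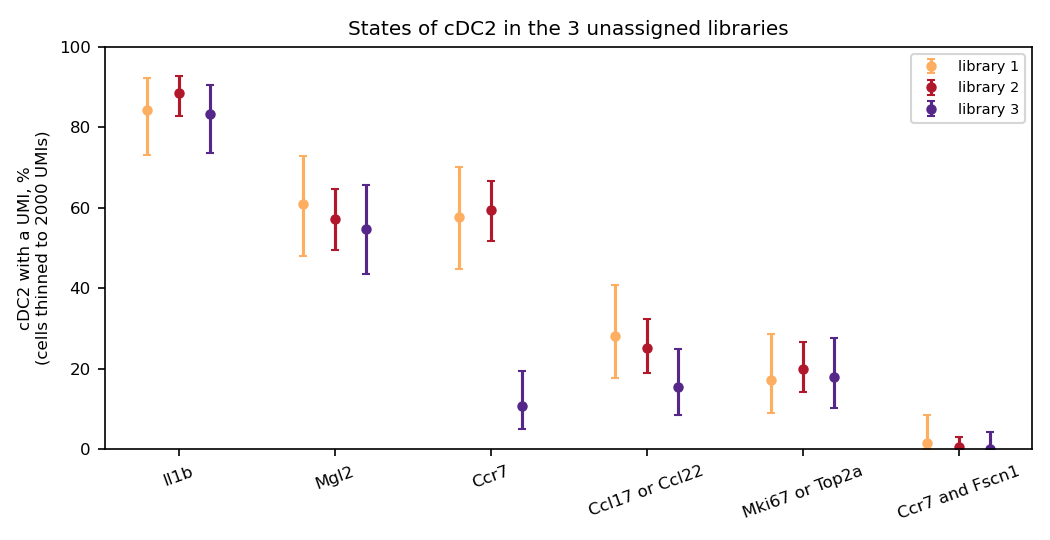
Share of cDC2 with at least 1 UMI of the named genes (y axis, percent) after thinning to 2000 UMIs, for libraries 1, 2 and 3 (64, 175 and 84 cells), with exact 95% binomial intervals that cover counting error only. Ccr7 was found in 57.8, 59.4 and 10.7% of the cells, while the shares for Il1b, Mgl2 and Mki67 or Top2a overlapped in their intervals.

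Within libraries 1 and 2, the 178 cDC2 with a Ccr7 UMI were set beside the 68 without, at median depths of 6167 and 6158 UMIs. Of 4930 compared genes, 16 were at least 2-fold higher (0.325%) and 19 lower (0.385%). Tbc1d4, a regulator of glucose transporter traffic, was at 712 CPM in Ccr7 cells and 221 CPM in the others, with log2 differences of 2.50 in library 1 and 1.12 in library 2. Ccl22 was at 113 CPM in Ccr7 cells and 32.2 CPM in the others, with log2 differences of 1.26 and 1.41. Ccl5, a T cell attractant, was at 81.1 CPM in Ccr7 cells and 27.9 CPM in the others. Ccl17 was at 412 CPM in Ccr7 cells and 480 CPM in the others, with log2 differences of -0.76 in library 1 and 0.51 in library 2. Plac8, a gene of monocytes, was at 96.9 CPM in Ccr7 cells and 395 CPM in the others, lower in both libraries. Cxcl9, Cxcl10, Hspa1a and Hspa1b were also lower, but by over 2-fold in 1 library only, library 2 for the chemokines and library 1 for the heat shock genes. Of 21 compared genes of the mature and migratory list other than Ccr7, 2 were higher (Ccl22 and Ccl5) and 0 lower, with a median log2 ratio of 0.43 against -0.02 over all compared genes.

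Lectins outside the rule were more often higher than lower against cDC1, and the reverse against macrophages. Of 15 compared with cDC1 (27 found, 3 in the rule), 6 were higher (Cd209d, Mgl2, Clec4b1, Clec4n, Mrc1 and Klrd1) and 1 lower (Cd207). Against macrophages, 3 of 17 were higher (Mgl2, Clec4b1 and Klrd1) and 8 lower. Klrd1 (chr6:129591782-129598775, plus strand), which encodes the CD94 chain of natural killer receptors, was at 156, 154 and 151 CPM in cDC2, against 43.2 CPM in cDC1 and 2.18 CPM in macrophages. It was even across the libraries, while Ncr1 and Eomes, markers of natural killer cells, were at 0 in the cDC2. Mrc1, the mannose receptor, was at 102, 120 and 295 CPM in cDC2, against 18.4 CPM in cDC1 and 1054 CPM in macrophages. Pattern recognition receptors were not counted as higher against either set. Against macrophages 5 of 20 compared were lower (Tlr2, Tlr7, Cd14, Ly96 and Nlrp3) and 0 higher, and against cDC1 only Tlr3 of 13 was lower. Tlr3, a sensor of double-stranded RNA, had 6 UMIs in cDC2 (2.71 CPM), against 71.8 CPM in cDC1. Tlr7, a sensor of single-stranded RNA, had 1 UMI in cDC2, against 84.0 CPM in macrophages.

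Scavenger and lipid genes were more often lower than higher against macrophages. Of 20 compared uptake receptors (25 found), 11 were lower than in macrophages and 1, Timd4, higher. Marco, Stab2, Cd5l and Fcer1a had 0 UMIs in cDC2. Against cDC1, Fcgr2b, Fcgr3 and Fcer1g were higher and Cd36 lower, of 13 compared uptake receptors. Fcer1g, the signalling chain of Fc receptors, was at 1026, 1241 and 446 CPM in cDC2, against 264 CPM in cDC1 and 1657 CPM in macrophages. Of 21 lipid and particle handling genes, 12 were lower than in macrophages and 2 higher (Fabp4 and Cd9). Against cDC1, of 17 compared, Fabp4 was higher and Cd36 lower. Apoe, a lipid carrier, was at 76.1, 75.3 and 228 CPM in cDC2, against 22184 CPM in macrophages, and Trem2, a lipid receptor, had 2 UMIs in cDC2, against 168 CPM in macrophages. Fabp4 was at 1.29, 0 and 323 CPM in cDC2, and 127 of its 136 UMIs were in 1 cell.

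Growth factor and cytokine receptors gave a profile shared in part with cDC1. Csf2rb, a chain of the receptors for GM-CSF, interleukin 3 and interleukin 5, was at 502, 393 and 196 CPM in cDC2, against 329 CPM in cDC1 and 141 CPM in macrophages. Il1r2, a decoy receptor for interleukin 1, was at 507, 333 and 228 CPM in cDC2, against 174 CPM in cDC1 and 44.1 CPM in macrophages. Kit, the stem cell factor receptor, was at 95.5, 101 and 95.8 CPM in cDC2, against 104 CPM in cDC1 and 3.71 CPM in macrophages. Il7r, a chain of the receptors for interleukin 7 and TSLP, was at 240, 267 and 67.1 CPM in cDC2, against 68.0 CPM in cDC1. Crlf2, the other TSLP receptor chain, was at 150, 178 and 81.4 CPM in cDC2, against 85.2 CPM in cDC1. Csf1r, the macrophage growth factor receptor, was at 59.4, 45.0 and 52.7 CPM in cDC2, against 8.90 CPM in cDC1 and 722 CPM in macrophages. Csf2rb, Il1r2, Il7r and Crlf2 were lowest in library 3, and Kit and Csf1r were even. Of 22 compared genes (25 found, 1 in the rule), Csf1r, Il1r2 and Il7r were higher than in cDC1 and 0 were lower. Against macrophages, Csf2rb, Kit, Il1r2 and Il7r were higher and 4 were lower (Csf3r, Il10rb, Tgfbr1 and Tgfbr2).

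Of 11 compared mucosal and retinoid genes (19 found), 0 were higher than in cDC1 and 1, Itgae, was lower. Against macrophages Itgae, Itgb7 and Ahr were higher, and Itgav and Thbs1 lower. Ahr, the aryl hydrocarbon receptor, was at 295.5, 322.5 and 71.9 CPM in cDC2, against 395 CPM in cDC1 and 78.5 CPM in macrophages. Itgb7, a chain of gut-homing integrins, was at 129, 130 and 127 CPM in cDC2, against 170 CPM in cDC1 and 2.84 CPM in macrophages. Aldh1a2, which makes retinoic acid, was at 14.9 CPM in cDC2 and 14.0 CPM in cDC1, and Ido1, Ido2 and Il22ra2 had 0 UMIs. Of 21 compared interferon response genes (30 found), 4 were higher than in cDC1, all of the Ifitm family, and 1 lower (Ifi205). Against macrophages the same 4 Ifitm genes of 24 compared were higher and 6 lower. Ifitm3, which blocks virus entry, was at 1330, 1492 and 419 CPM in cDC2, against 380 CPM in cDC1 and 512 CPM in macrophages. Family members share sequence with Ifitm2, at 1196 CPM in cDC2, and their separate levels are uncertain. Of 22 compared cell cycle genes (24 found), 0 were higher than in cDC1 and 3 lower (Ube2c, Pclaf and Cenpf). Against macrophages, Mki67 and H2afz of 17 were higher and 0 lower. Mki67 or Top2a, genes of dividing cells, was found in 17.2, 20.0 and 17.9% of thinned cDC2, and Mki67 was at 111 CPM in cDC2, 139 CPM in cDC1 and 34.9 CPM in macrophages.

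**Figure D4:**
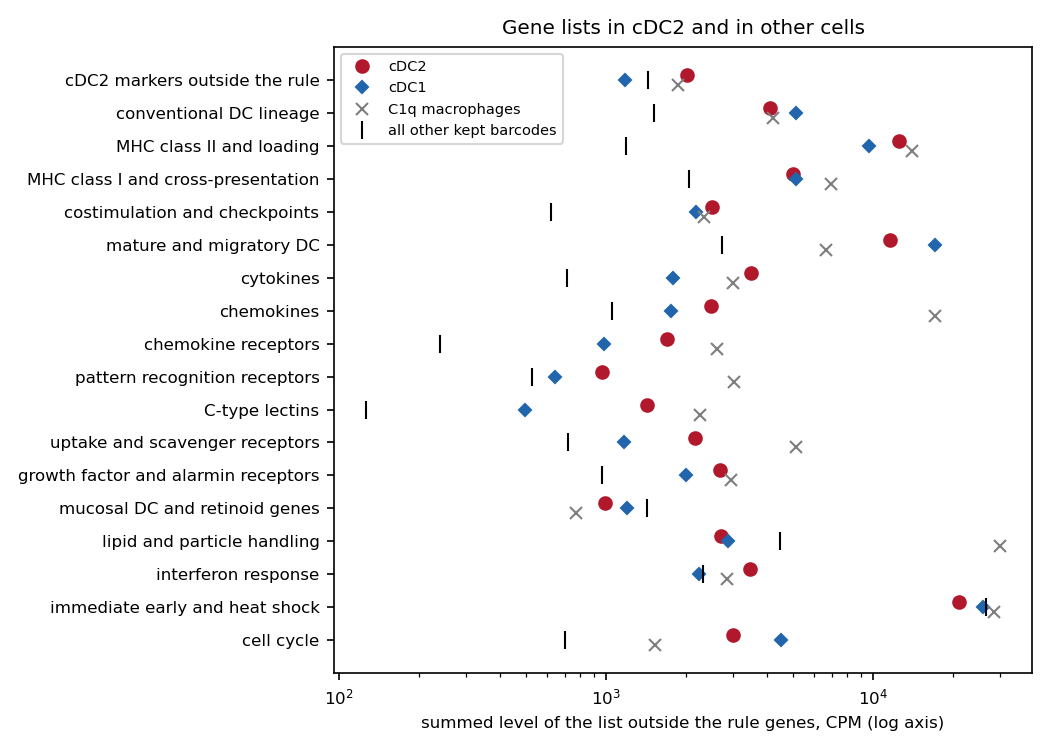
Summed level of each gene list outside the rule genes (y axis) in CPM on a log axis, in cDC2 (red circles), cDC1 (blue diamonds), C1q macrophages (grey crosses) and all other kept barcodes (black bars). The chemokine and lipid lists lay far lower in cDC2 (2475 and 2706 CPM) than in macrophages (17107 and 30009 CPM).

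Immediate early and heat shock genes summed to their highest level in library 3. The 28 genes summed to 15990, 14262 and 47042 CPM in cDC2 of libraries 1, 2 and 3, against 25756 CPM in cDC1 and 28497 CPM in macrophages over all libraries. Egr1, induced within minutes of many stimuli, was at 73.6, 122 and 2336 CPM in cDC2, and at 1576, 1111 and 3475 CPM over all kept barcodes of libraries 1, 2 and 3. Nr4a1, a nuclear receptor of that class, was at 287, 222 and 1859 CPM in cDC2, and Junb at 1130, 840 and 4317 CPM. Library 3 was the highest for each of these genes. Of the 28 genes, 0 were higher and 1, Egr3, lower than in cDC1, while against macrophages Nr4a2 and Nr4a3 were higher and 4 were lower (Jun, Egr1, Ier3 and Ier5). Of 3036 genes compared in library 3, 504 were at least 2-fold above both other libraries, against 5 of 2270 for library 1 and 2 of 1994 for library 2. Those of library 3 included the fibroblast and vessel genes Igfbp3, Eln and Sparcl1, at 252, 165 and 175 CPM. Library 3 also had the lowest depth and the most stromal RNA, and whether these or the group the library came from set its values cannot be told apart.

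The 10 genes with the largest difference on each side, outside the genes used to choose the cells and the same in direction in each library, drew the contrast with cDC1. Higher in cDC2 were Retnla, Cybb, Itgam, Mrc1, Ccl9, Wfdc17, Mgl2, Ear2, Stap1 and Arl5c. Lower were Irf8, Ppt1, Ifi205, Cadm1, Ncoa7, Rab7b, Cd81, Tbc1d8, Agpat3 and Naaa. Wfdc17, an inhibitor of inflammatory activation in mouse macrophages, was at 914, 1062 and 764 CPM in cDC2, against 210 CPM in cDC1, 4.54-fold higher (counting interval 4.04 to 5.11). Cadm1, an adhesion molecule used to mark cDC1, was at 1.29, 7.82 and 21.6 CPM in cDC2, against 210 CPM in cDC1. Naaa, a lysosomal acid amidase, was at 142, 85.0 and 237 CPM in cDC2, against 622 CPM in cDC1. The other 9 higher genes were found in 35.7 to 90.2% of the cDC2, and Retnla in 5.95%. Retnla, a secreted protein of type 2 activated macrophages, was at 31.0, 75.3 and 1200 CPM in cDC2, against 5.72 CPM in cDC1, and 234 of its 602 UMIs were in 1 of the 20 cells that held any. Its level was 56.2 CPM without library 3 and 440 CPM without library 2, and its log2 difference of 3.50 was 0.76 when Itgax no longer admitted cells.

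Against C1q macrophages, the 10 genes most above were Ccr7, Napsa, Ccl17, P2ry10, Lsp1, Klrd1, Tbc1d4, Mcemp1, Arap2 and S100a4, and the 10 most below were Apoe, Pf4, Ccl12, Vcam1, Ccl7, Selenop, Ms4a7, Gdf15, Ccl8 and Ccl3. Napsa, an aspartic protease, was at 448, 539 and 278 CPM in cDC2, against 27.7 CPM in macrophages, 16.5-fold higher (13.7 to 20.0). Lsp1, an actin-binding protein of leukocytes, was at 844, 673 and 790.5 CPM in cDC2, against 78.5 CPM in macrophages. S100a4, a calcium-binding protein of motile cells, was at 1066, 865 and 549 CPM in cDC2, against 109 CPM in macrophages. These 3 genes were above the macrophages of the same library in every library, as was Ccr7. Within library 3 the log2 differences were 3.00 for Napsa, 2.79 for Lsp1, 2.27 for S100a4 and 2.23 for Ccr7. Pf4, a chemokine of platelets and resident macrophages, had 11 UMIs in cDC2 (4.96 CPM), against 957 CPM in macrophages. Ms4a7, a membrane protein of macrophages, had 6 UMIs in cDC2 (2.71 CPM), against 592 CPM in macrophages.

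**Figure D5:**
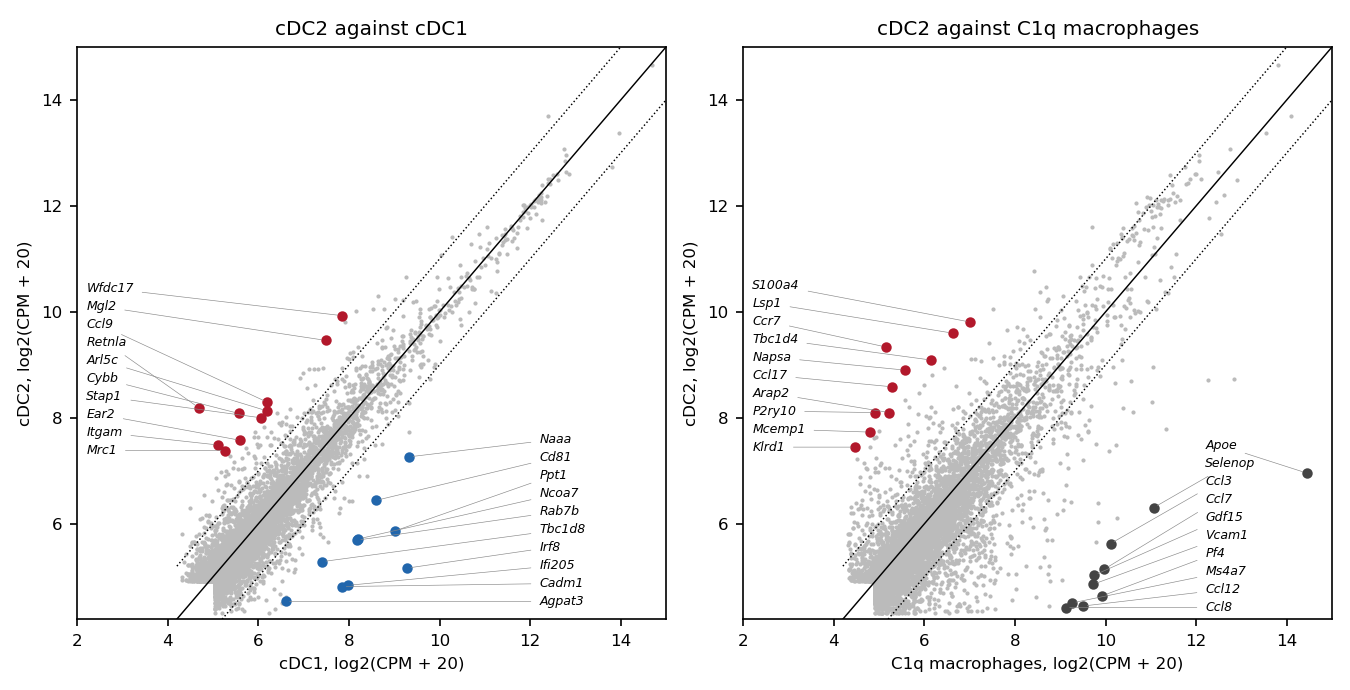
Gene levels in cDC2 (y axis) against cDC1 (left, x axis) and C1q macrophages (right, x axis), all as log2(CPM + 20), 1 grey point per compared gene, with the 10 named genes on each side coloured and lines at equal levels (solid) and at 2-fold (dotted). Fewer genes left the band of 2-fold against cDC1 (144 higher, 112 lower) than against macrophages (242 higher, 492 lower).

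The summed RNA of the 44 monocyte-type cells, 28 of them from library 3, held 7 epithelial markers outside the rule at 3956 CPM, against 181 CPM in cDC2. Their median depth was 3038.5 UMIs and the deepest cell held 64316, so few cells weigh heavily in the sums. Of 6727 compared genes, 453 were higher in cDC2 (6.73%) and 925 lower (13.8%), and the 10 lowest, among them Slc4a4, Dmbt1 and Clu, were mostly genes of epithelium. Without library 3, the log2 differences of Clu, Ctrb1, Onecut2 and Ttr turned positive (0.24, 0.32, 0.64 and 0.88). The 10 highest in cDC2 included Ccl17 and H2-Oa, both at 0 UMIs in the monocyte-type cells. They also included H2-Eb1, at 8584 CPM in cDC2 and 847 CPM in monocyte-type cells. With 3 counts over the whole set in place of 0, Ccl17 was 39.7-fold and H2-Oa 19.2-fold higher in cDC2. The lower limits of their counting intervals were 32.2-fold and 15.5-fold. These values pool all libraries, and library 3 held 269302 of the 327086 UMIs of the monocyte-type cells. Within library 3 alone, the log2 differences were 2.38 for Ccl17 and 2.68 for H2-Oa.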

How the data were processed

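Single-cell 3′ libraries of pooled mouse gallbladders were counted by the authors with Cell Ranger 6.1.1 on GRCm38 (mm10), per the submitters' processing notes, and deposited as 1 matrix of raw UMI counts (31053 genes, 27700 barcodes) for all 3 samples. The rule's members and the gene lists (18 pathway and 20 marker lists, 578 of 584 entries found) were chosen with earlier results of these data known. Barcodes under 300 genes or over 20% mitochondrial UMIs were dropped, which left 26017. Levels are UMIs summed over the cells of a set and scaled to 1000000 (CPM), with exact Poisson 95% intervals. Shares of cells carry exact Clopper-Pearson intervals, and both cover counting error only. Shares were also computed after thinning each cell to 2000 UMIs, without the 13 shallower cDC2. Doublets were scored per library with Scrublet (scanpy 1.11.5, threshold 0.25) and kept. Named genes were the rule genes, the 3 highest members of each list or those that describe it, and the 10 largest differences each way among genes of at least 50 CPM and 20 UMIs in the higher set, without genes of either gate, mitochondrial or ribosomal protein genes, in 1 direction in each library with 20 cells of both sets. With 1 pooled sample no test across samples was run. The calculation of the level ratios was checked on Poisson counts drawn from the summed cDC2 profile with known folds. These counts hold no spread between cells or libraries, so they do not test the measured ratios. Gene positions are from GENCODE M21, matched by identifier for 30934 genes. Promoters are from RefSeq.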

Additional observations from a re-analysis of the deposited data

How the results depend on the processing

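The cDC2 share of 1.29% became 1.12% with at least 2 lectin UMIs and 1.02% when Itgax alone no longer admitted a cell, and ranged from 1.07 to 1.54% when each library was left out in turn. An offset of 5 CPM in place of 20, which damps low genes less, gave 299 higher and 363 lower genes against cDC1, 414 and 1145 against macrophages, and 744 and 1481 against monocyte-type cells. With libraries weighing the same, 613 genes were lower than in monocyte-type cells. Leaving out each library gave 113 to 181 genes higher and 101 to 196 lower than in cDC1, the 196 without library 1, 245 to 252 higher and 459 to 571 lower than in macrophages, and 533 to 647 higher and 736 to 902 lower than in monocyte-type cells. The share with Ccr7 and Fscn1 was 0.619% after thinning and 2.03 to 3.25% without each library. The Ccr7 share, chosen after seeing the data, was 46.4% after thinning, 49.1% with at least 2 UMIs, 37.7% without library 2 and 72.4% without library 3. Without library 3, the log2 differences from monocyte-type cells turned positive for Clu (0.24), Ctrb1 (0.32), Onecut2 (0.64) and Ttr (0.88), while the lowest values with another library left out were -5.12, -5.17, -4.30 and -4.37. The cause of these changes was not tested. Of 840 recomputed differences of single named genes, 829 kept their sign at a log2 size of 1 or more, 7 came under 1 and these 4 reversed. Of 1358 recomputed CPM levels of named genes, 243 were counted as moved and 1115 as the same. The other limits on cells, doublet removal and the minimum of 50 CPM kept each count of genes within 1.5 times. Exposure groups could not be compared or paired, because each was 1 sample and no library number is linked to a group. Cell sets of the same library were paired only in the log2 differences by library used to choose named genes. The cDC1 and macrophage levels given beside cDC2 values of single libraries pool all libraries. Depth limits low genes: 3 UMIs over all cDC2 are 1.35 CPM.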
